A study of Rattus norvegicus with 16 samples.

Results

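The rat microRNAs (miRNAs) miR-296 and miR-298 are small repressors of messenger RNAs, made from 2 hairpins beside the imprinted gene Gnas. All rows of the deposited tables named after either hairpin were taken, which gave rno-miR-296-5p, rno-miR-296-3p, rno-miR-298-5p and rno-miR-298-3p, 4 of the 722 miRNAs listed. The hairpins had been selected on measured values of miR-298-5p and miR-296-3p in these same libraries. For miR-298-5p this was the difference between the brain regions. For miR-296-3p the measure is not recorded, so that none of its contrasts is independent of the choice. Small RNA libraries came from dorsal raphe or amygdala tissue of rats 60 days old. The dorsal raphe holds serotonin neurons that project widely in the brain, and the amygdala takes part in fear and emotion. The 4 groups, of 4 libraries each, were low responder dorsal raphe, high responder dorsal raphe, low responder amygdala and high responder amygdala, the responder names being those of 2 rat strains given in the labels, here called lines. The labels name no treatment and no altered gene, and they leave unsaid whether each sample of a group is a different animal. P-values therefore rest on the spread between samples, which may be technical.

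Gnas encodes the stimulatory G protein alpha subunit that couples receptors to cyclic AMP, and further transcripts of the locus are expressed from a single parental allele. In mouse, miR-296 and miR-298 are processed from the antisense side of this locus and are expressed from the paternal allele, in brain among other tissues. A miRNA hairpin yields a mature strand from each arm, named 5p and 3p. Bases 2 to 8 of the mature strand, the seed, carry most of the pairing to target messenger RNAs. miR-296 is known from blood vessel endothelium, and miR-298 as a repressor of the amyloid-processing enzyme BACE1.

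All 4 names matched the RefSeq miRNA table for the rat assembly GRCr8. Positions below are those of RefSeq, since no source used here gives the build of the counts. The hairpins are shown to place the arms that were counted, which are in capitals, 5′ to 3′. Mir296 lies at chr3:183470069-183470146 and Mir298 at chr3:183470522-183470603, both on the minus strand.
Mir296: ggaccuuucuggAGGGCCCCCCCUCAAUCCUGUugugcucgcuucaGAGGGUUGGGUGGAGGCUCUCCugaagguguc
Mir298: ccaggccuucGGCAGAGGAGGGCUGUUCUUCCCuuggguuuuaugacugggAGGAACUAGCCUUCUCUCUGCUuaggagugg
The gap between them is 375 bases. In the RefSeq gene table the next gene on one side is Gnas, 19044 bases away, whose 3 listed start sites are on the plus strand, opposite to the hairpins, and the next on the other side is Npepl1. No listed gene overlaps them.

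The mature strands are shown to compare seeds, which are in capitals.
rno-miR-296-5p: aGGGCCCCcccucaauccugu
rno-miR-296-3p: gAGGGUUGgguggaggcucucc
rno-miR-298-5p: gGCAGAGGagggcuguucuuccc
rno-miR-298-3p: aGGAACUAgccuucucucugcu
No seed was shared among the 4, nor with any other of the 693 mature miRNA names in the RefSeq table. The nearest other mature sequence was 8 or 9 single-base edits away for each, so none has a near-identical copy among the 644 listed miRNAs that matched the table. All strands but miR-298-3p are rich in G and C. The GC content was 68.2% in miR-296-3p, 66.7% in miR-296-5p, 65.2% in miR-298-5p and 50.0% in miR-298-3p, against a median of 47.6% over the 644.

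The libraries held 1741167 to 8134915 counts. Levels are given as CPM, the counts scaled to a library of 1000000. A level of 3 counts, below which presence and absence could not be separated, was 0.369 to 1.72 CPM of library totals, as far as counting error goes. The 4 strands had 8 to 1597 counts in a library, and all passed the low count filter. Low responder dorsal raphe replicate 4 stands apart from its group and has a trimmed mean of M values (TMM) factor of 0.596, which raises its scaled levels. High responder amygdala replicate 1, the shallowest, was set apart too, and no numeric rule for setting libraries apart is given here. The hindbrain miRNAs miR-10a-5p and miR-10b-5p together stood at 360 to 467 CPM in 7 dorsal raphe libraries, at 3925 CPM in low responder replicate 4 and at 24.7 to 146 CPM in amygdala, so the regions did not overlap.

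miR-298-5p was the most abundant of the 4 strands in each of the 16 libraries, and miR-298-3p stood above miR-296-5p in each. In low responder dorsal raphe replicate 4 miR-296-3p, at 37.7 CPM, came second, above miR-298-3p at 32.04 CPM. miR-296-5p stood above miR-296-3p in 13 of 16. The CPM are TMM-scaled and the mature strands are 21 to 23 bases long. The order between strands is one of counts, and whether it is also their order in the tissue was not tested. The mean level of miR-298-5p over all libraries ranked 222 among 722 miRNAs, that of miR-298-3p 306, that of miR-296-5p 349 and that of miR-296-3p 407.

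rno-miR-298-5p was lower in amygdala than in dorsal raphe in both lines, and no amygdala library reached the lowest raphe library. Its raphe levels were 249, 276, 202 and 188 CPM in low responder replicates 1 to 4. The high responders there had 120.4, 155, 164 and 237 CPM. In amygdala the low responders had 35.5, 31.97, 21.5 and 31.2 CPM and the high responders 18.6, 29.2, 60.2 and 51.3 CPM. The mean was 199 ± 52.5 CPM in dorsal raphe and 34.9 ± 14.2 CPM in amygdala (SD, n = 8 each), a fitted log2 fold change of -2.50 (SE 0.25), or 5.67-fold lower. Within the lines the log2 fold change was -2.93 (SE 0.36) in low and -2.08 (SE 0.35) in high responders. This region difference was known from earlier results of the same data when the miRNAs were chosen, so it is a description, as are the region differences of the other strands, and none was tested.

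miR-298-3p, the other strand of that hairpin, also lay lower in every amygdala library than in any raphe library. The raphe levels were 55.4, 78.0, 68.3 and 32.04 CPM in low responders and 48.6, 44.1, 61.9 and 77.0 CPM in high responders. In amygdala the values were 19.5, 22.4, 12.6 and 26.3 CPM in low responders and 14.4, 18.5, 21.3 and 22.4 CPM in high responders. Low responder dorsal raphe replicate 4 was the lowest raphe library, although its TMM factor raises it. The fitted log2 fold change was -1.56 (SE 0.22), 2.95-fold lower in amygdala, with -1.54 (SE 0.31) in low and -1.59 (SE 0.32) in high responders.

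miR-296-5p differed between the regions by a similar amount, with an overlap of 1 library on each side. Low responder dorsal raphe had 52.9, 56.1, 34.6 and 19.2 CPM and high responder dorsal raphe 17.6, 25.9, 32.1 and 34.9 CPM. Low responder amygdala had 13.3, 12.9, 7.59 and 14.4 CPM, and high responder amygdala 4.26, 4.80, 12.6 and 18.4 CPM. The high responder amygdala libraries fell into a low and a high pair, and replicate 4 of them exceeded high responder dorsal raphe replicate 1. The low pair, replicates 1 and 2, had 8 and 13 counts in the shallowest amygdala libraries (1741167 and 2561377 counts). The split is not particular to this strand. In this group miR-298-5p divided the same way, as did miR-335 (60.15, 213, 617 and 647 CPM), while miR-296-3p did not. The fitted log2 fold change was -1.59 (SE 0.30), 3.02-fold lower, with -1.77 (SE 0.43) in low and -1.42 (SE 0.43) in high responders.

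rno-miR-296-3p, the least abundant strand by its mean over all libraries, had unlike values in the lines. Low responder dorsal raphe stood at 21.4, 11.3, 10.8 and 37.7 CPM, the last in replicate 4, where the unscaled level was 22.4 CPM. High responder dorsal raphe stood at 5.87, 5.78, 11.4 and 13.6 CPM. Low responder amygdala had the lowest levels, 4.36, 4.78, 3.69 and 2.11 CPM. High responder amygdala had 7.98, 7.76, 7.77 and 4.47 CPM, with 3 of 4 libraries above the lower 2 of high responder dorsal raphe. The log2 fold change of amygdala over dorsal raphe was -2.40 (SE 0.44) in low responders and -0.40 (SE 0.43) in high responders, with a mean of -1.40 (SE 0.31). Without low responder dorsal raphe replicate 4 the value in low responders was -1.86, and without high responder dorsal raphe replicate 4 the value in high responders was -0.08.

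**Figure D1:**
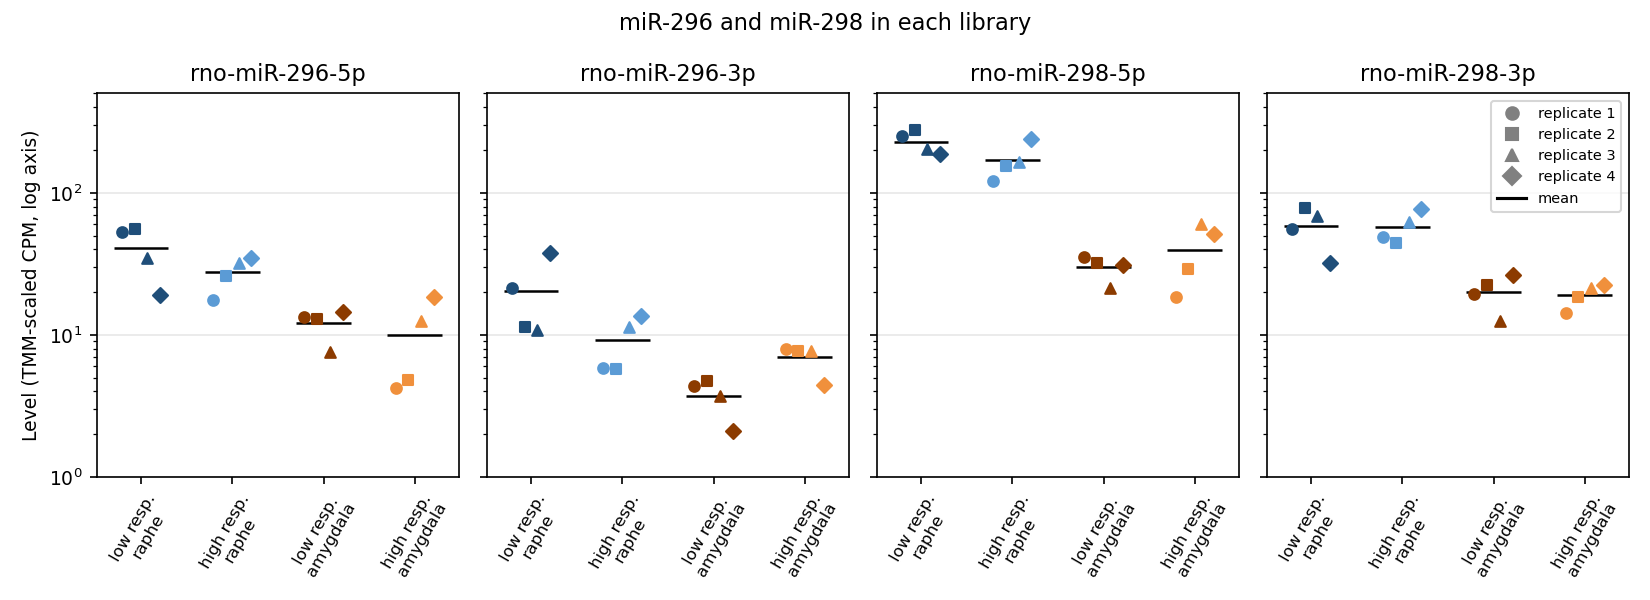
Level of each strand (TMM-scaled CPM, log axis) in every library of the 4 groups, 1 symbol for each replicate number, with the group mean as a line. The 8 raphe libraries of miR-298-5p (120.4 to 276 CPM) and of miR-298-3p (32.04 to 78.0 CPM) sit above all amygdala libraries, while those of miR-296-3p overlap with them.

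In all, 2 of the 4 strands had no overlap between the 8 raphe and the 8 amygdala libraries, both lower in amygdala, which 4.69% of all 639 miRNAs tested were. Within low responders 4 of 4 did not overlap (13.1% of all tested were lower without overlap), and within high responders 2 of 4 (12.4%). The median log2 fold change of the 4 was -1.58, against -0.08 over all miRNAs tested. Since the miRNAs were chosen with this contrast known, nothing is read from these counts. Fewer cells that express a miRNA and less of it in each cell cannot be told apart in such tissue samples.

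**Figure D2:**
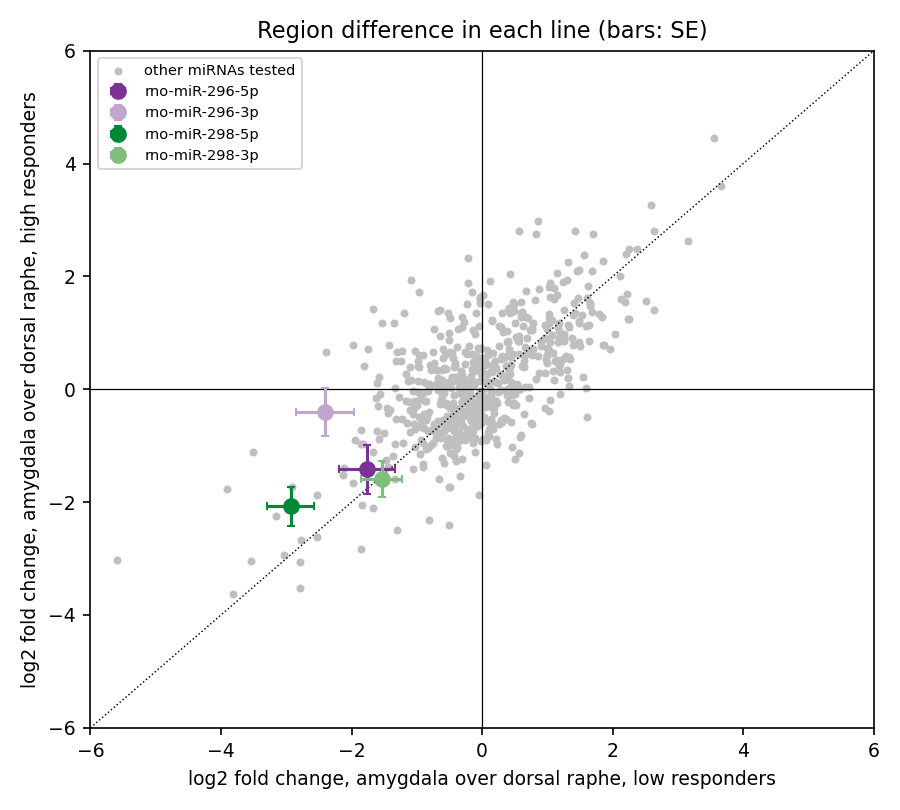
Log2 fold change of amygdala over dorsal raphe in low responders (x axis) against high responders (y axis) for the 639 miRNAs tested, with SE bars on the 4 strands. miR-298-3p lies nearest to the dotted line of equal change (-1.54 and -1.59), miR-298-5p lies above it at -2.93 and -2.08, and miR-296-3p lies farthest above it at -2.40 and -0.40.

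Summed levels of marker miRNAs of other cell types are given beside these values, with low responder dorsal raphe replicate 4 apart from the other 7 raphe libraries because it sets the upper limit of most lists. The muscle markers (4 of 4 listed) summed to 1344 to 1816 CPM in the 7, 5085 CPM in that library and 216 to 402 CPM in amygdala, with no overlap between the regions. The neuron markers (3 of 3) summed to 124300 to 173700 CPM in the 7, all below the 202300 to 256200 CPM of amygdala, and to 258200 CPM in that library. The lists that follow overlapped between the regions, with or without that library. Oligodendrocyte markers (4 of 6 found) had 10260 to 16360 CPM in the 7, 40520 CPM in that library and 4953 to 13590 CPM in amygdala. Vascular markers (4 of 4) had 43760 to 60790, 119200 and 33080 to 49730 CPM in the same order. Choroid plexus and ciliated cell markers (6 of 6) had 3735 to 6878, 8127 and 1325 to 28650 CPM. Epithelial and pituitary markers (6 of 6) had 114 to 315, 775 and 35.3 to 370 CPM. Microglia and leukocyte markers (4 of 5) had 389 to 564, 307 and 180 to 504 CPM, and erythrocyte markers (3 of 4) 141 to 245, 85.7 and 68.1 to 348 CPM. Of the markers found, miR-141-3p and miR-429 were at 0 in at least 1 raphe library each and no other was at 0. Their part in the levels of miR-296 and miR-298 was not tested.

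The comparison of the lines asks which miRNAs go with the strain. For miR-296-3p no line contrast is independent of the choice of the hairpins, so its p-values are descriptions. In dorsal raphe miR-296-3p, miR-296-5p and miR-298-5p had lower fitted values in high responders under each of the 3 scalings run (TMM, library totals and DESeq2), and none of them passed the test. miR-296-3p had the largest difference, with 9.16 ± 3.95 CPM in high and 20.3 ± 12.6 CPM in low responders (SD, n = 4 each), a log2 fold change of -1.10 (SE 0.42, adjusted p = 0.358 in edgeR's quasi-likelihood test). The groups overlapped in 2 libraries on each side. Without low responder dorsal raphe replicate 4 the difference was -0.54 (adjusted p = 0.996), and over 23 alternative fits the adjusted p ran from 0.246 to 0.996. For miR-296-5p the means were 27.6 ± 7.67 and 40.7 ± 17.2 CPM (log2 fold change -0.57, SE 0.41), and for miR-298-5p they were 169 ± 49.1 and 229 ± 40.7 CPM (-0.44, SE 0.33). miR-298-3p had 57.9 ± 14.8 against 58.4 ± 19.9 CPM (-0.02, SE 0.30), and its sign changed with the scaling (0.13 with library totals). Scaling by library totals moved the median of all 639 by 0.20 in this comparison.

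edgeR called 0 of the 4 strands between the lines in dorsal raphe (0.0% of all miRNAs tested). At an unadjusted p under 0.05 it had 1 of 4, miR-296-3p, and 70 of 639. DESeq2 called 0 of 4 and 0 over all miRNAs. No strand had groups without overlap, against 4.23% of all tested. The median log2 fold change of the 4 was -0.50, and over all tested it was -0.06.

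In amygdala miR-296-3p went the other way, with 6.996 ± 1.69 CPM in high responders and 3.73 ± 1.17 CPM in low responders (SD, n = 4 each). The log2 fold change was 0.90 (SE 0.44) and did not pass (adjusted p = 0.485 in edgeR). Only 1 high responder library, replicate 4 at 4.47 CPM, lay within the range of the low responders, and 3 of 4 lay above it. Between same-numbered libraries the high responder was above the low responder in 4 of 4 pairs. Of these pairs 3 follow from the 3 libraries above the range, whatever the pairing. With these pairs as a block in the 8 amygdala libraries alone, an alternative chosen after seeing the data, the difference was 0.91 (SE 0.30, unadjusted p = 0.0175, adjusted p = 0.168 in edgeR). The means of miR-298-5p were 39.8 ± 19.2 against 30.0 ± 6.01 CPM (0.42, SE 0.34), with high responder replicates 3 and 4 above all low responder libraries and replicate 1 below them. Without high responder amygdala replicate 3 the value was 0.10. miR-296-5p had 9.99 ± 6.74 against 12.04 ± 3.03 CPM (-0.22, SE 0.43), and -0.68 without high responder amygdala replicate 4. miR-298-3p had 19.1 ± 3.57 against 20.2 ± 5.79 CPM (-0.07, SE 0.31).

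edgeR called 0 of the 4 between the lines in amygdala (0.0% of all tested), with 0 of 4 and 65 of 639 at an unadjusted p under 0.05. DESeq2 called 20 miRNAs over all, none of them miR-296 or miR-298 strands, and gave miR-296-3p no adjusted p. No strand had groups without overlap (8.76% of all tested). The median log2 fold change of the 4 was 0.17, against 0.07 over all tested.

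The interaction asks whether the line difference was unlike in the 2 regions. It was largest for miR-296-3p, at 2.00 on the log2 scale (SE 0.61), where edgeR gave an unadjusted p = 0.00425 and an adjusted p = 0.202. These p-values too are not independent of the choice of the hairpins. DESeq2 gave 1.93 with an adjusted p of 0.0617, and library totals gave 1.57 while moving the median of all 639 by -0.33. Without low responder dorsal raphe replicate 4 it was 1.41 (adjusted p = 0.368), and over 21 alternative fits the adjusted p ran from 0.0617 to 0.423. miR-298-5p had 0.85 (SE 0.48), which was 0.49 without high responder amygdala replicate 3 and 1.07 (unadjusted p = 0.00945, adjusted p = 0.227 in edgeR) without both libraries that stand apart. The interaction was 0.35 for miR-296-5p (SE 0.60) and -0.05 for miR-298-3p (SE 0.44). edgeR called 0 of the 4 (0.0% of all tested). At an unadjusted p under 0.05 it had 1 of 4 and 81 of 639. DESeq2 called 12 miRNAs, none of them these strands.

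**Figure D3:**
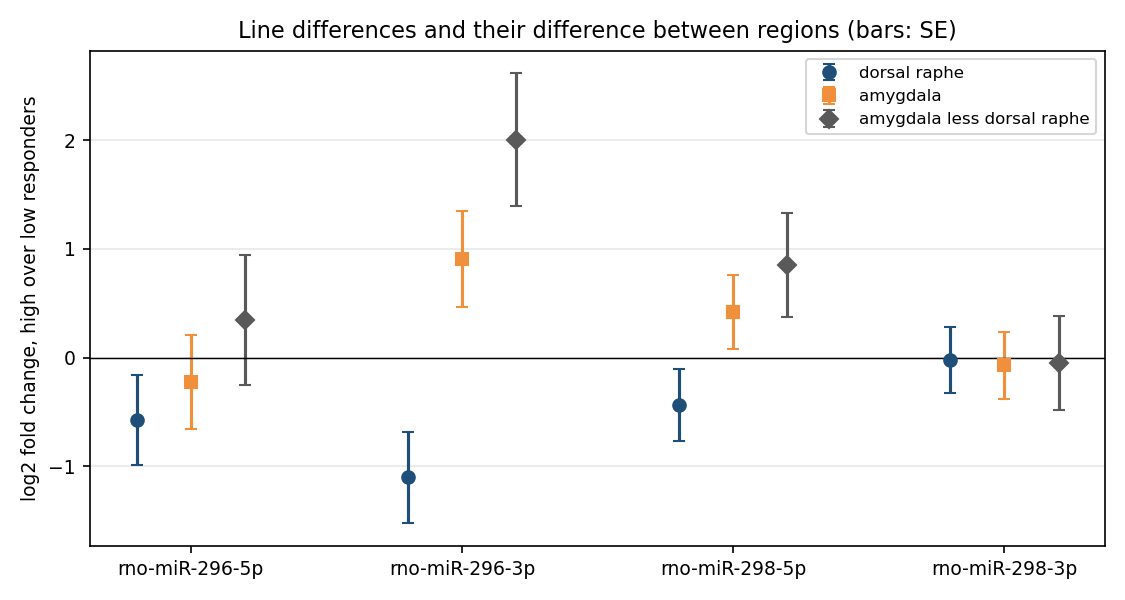
Log2 fold change of high over low responders in dorsal raphe and amygdala, and the difference of the 2 (amygdala less dorsal raphe), for each strand with SE bars. The values of miR-296-3p lie on opposite sides of 0 (-1.10 and 0.90), and both values of miR-298-3p lie near 0.

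The arms of a hairpin come from the same precursor, so their ratio within a library needs no scaling. For miR-298 the 5p arm held most counts in every library. The 3p share of both arms was 18.2%, 22.1%, 25.3% and 14.5% in low responder dorsal raphe and 28.8%, 22.1%, 27.4% and 24.5% in high responder dorsal raphe. In amygdala it was 35.4%, 41.2%, 36.9% and 45.7% in low responders and 43.5%, 38.8%, 26.2% and 30.4% in high responders. The amygdala shares were thus higher, with high responder replicate 3 alone inside the raphe range, and miR-298-5p differed more between the regions than miR-298-3p. This is part of the region contrast and was not tested.

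For miR-296 the 5p arm held most counts in 13 libraries, with a 3p share of 12.8% to 38.2%. In the other 3 the 3p arm held more. The share was 66.2% in low responder dorsal raphe replicate 4 (47 of 71 counts, 95% exact Clopper-Pearson interval 54.0% to 77.0%). It was 65.2% in high responder amygdala replicate 1 (15 of 23, 42.7% to 83.6%) and 61.8% in replicate 2 of that group (21 of 34, 43.6% to 77.8%). Intervals cover counting error only, since reads are not independent molecules. These libraries held 2096188, 1741167 and 2561377 counts and were the shallowest but for high responder dorsal raphe replicate 1, which had 2419326 counts and 18 of 72 counts on the 3p arm. Over 191 hairpins with both arms listed and at least 20 counts in every library, the log2 ratio of 3p to 5p in low responder dorsal raphe replicate 4 deviated from its group mean by a median of 0.01 (quartiles -0.88 and 0.91). miR-296 deviated by 2.04 there, with 22 hairpins above it. In high responder amygdala replicates 1 and 2 it deviated by 1.16 and 0.96, with 36 and 16 hairpins above it. The quartiles were -0.87 and 0.91 in replicate 1 and -0.32 and 0.38 in replicate 2. Deeper libraries also held large deviations of miR-296. Low responder amygdala replicate 3 had 0.67 (6 hairpins above), and replicate 4 of that group, the deepest library, had -1.04 (182 above). The value was -1.22 in low responder dorsal raphe replicate 2 (183 above). High responder amygdala replicate 4 had -1.72 (180 above). Whether depth has a part in the arm ratio of miR-296 was not tested.

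**Figure D4:**
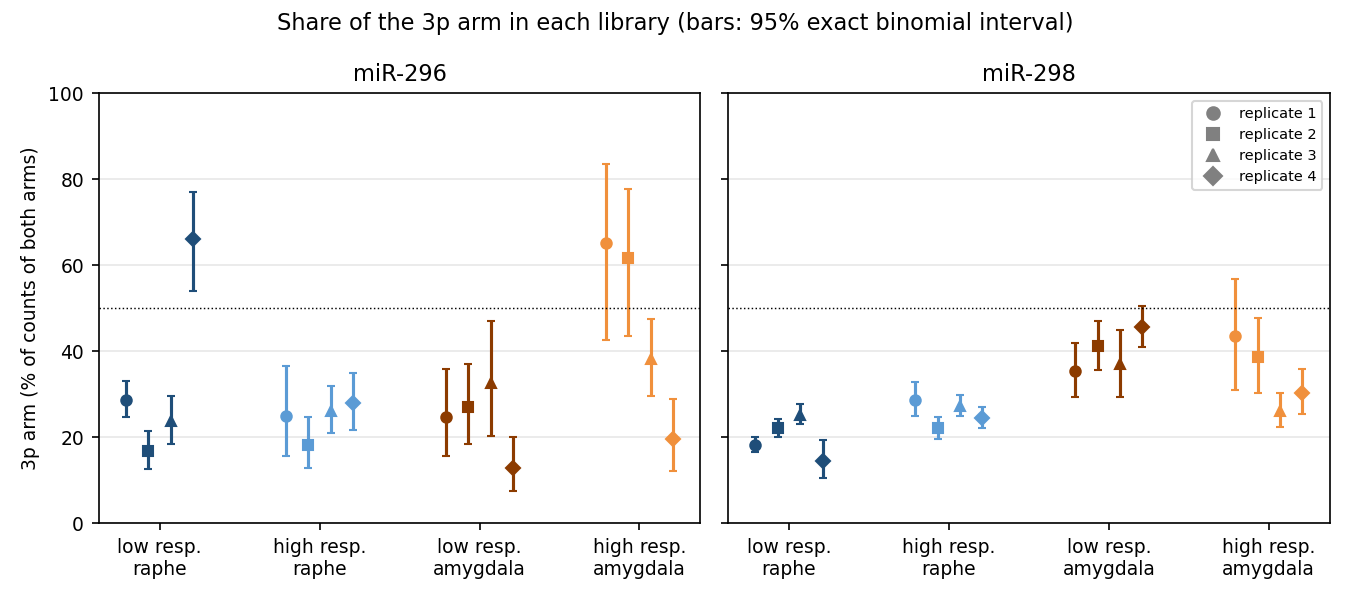
Share of the 3p arm in the counts of both arms (%) of miR-296 and miR-298 in every library, with 95% exact binomial intervals. For miR-296, 3 libraries lie above 50% (66.2%, 65.2% and 61.8%), and the amygdala libraries of miR-298 lie at 26.2% to 45.7% against 14.5% to 28.8% in dorsal raphe.

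Between the lines, 3 ratios were compared in each region by an exact two-sided permutation test of 4 against 4 libraries, where the smallest possible p is 0.0286. Adjusted over the 6 tests, a difference in 1 ratio alone could not go below 0.171, so these tests could not pass for a lone difference and the values are given as descriptions. The 3p share of miR-296 and the ratio of miR-298-5p to miR-296-3p both hold miR-296-3p, so neither is independent of the choice of the hairpins. miR-298-5p, chosen by its region difference, is part of that ratio and of the 3p share of miR-298. The 3p share of miR-296 in amygdala was 46.2% ± 21.4 in high and 24.3% ± 8.38 in low responders (SD, exact permutation p = 0.143, adjusted p = 0.411 over the 6). It was higher in high responders in 4 of 4 same-numbered pairs (exact sign-flip permutation p = 0.125, the smallest that 4 pairs allow). In dorsal raphe it was 24.4% ± 4.24 against 33.9% ± 22.1 (exact permutation p = 0.686), and 1.28 percentage points higher in high responders without low responder dorsal raphe replicate 4. The 3p share of miR-298 was 25.7% ± 2.97 against 20.01% ± 4.65 in dorsal raphe (exact permutation p = 0.114) and 34.7% ± 7.88 against 39.8% ± 4.65 in amygdala (exact permutation p = 0.314). The log2 ratio of miR-298-5p to miR-296-3p was 4.25 ± 0.37 against 3.67 ± 1.00 in dorsal raphe and 2.38 ± 1.03 against 3.02 ± 0.59 in amygdala (exact permutation p = 0.343 for each).

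The other 3 strands varied together across libraries more than any of them did with miR-296-3p. Over the 16 libraries Pearson's r of log2 CPM was 0.93 between the strands of miR-298, 0.91 between miR-296-5p and miR-298-5p and 0.90 between miR-296-5p and miR-298-3p. With group means removed these were 0.66, 0.87 and 0.75. miR-296-3p had r of 0.45 with miR-296-5p, 0.50 with miR-298-3p and 0.69 with miR-298-5p, and -0.30, -0.37 and -0.02 with group means removed. These correlations are descriptions, since all strands share the same libraries and scaling. With both arms summed, the log2 ratio of miR-298 to miR-296 was 2.44 ± 0.32 in dorsal raphe and 1.71 ± 0.19 in amygdala (SD, n = 8 each).

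Of 403 other miRNAs with a mean of at least 10 CPM, those whose log2 CPM over the 16 libraries was most like miR-298-5p were miR-758-3p of the imprinted Dlk1-Dio3 region (r = 0.95), the muscle miRNA miR-133a-3p (0.94) and miR-653-5p of the calcitonin receptor gene (0.94). For miR-298-3p they were miR-133a-3p (0.95), miR-34a-5p, which p53 induces (0.93), and miR-758-3p (0.92). miR-296-5p was most like miR-702-3p (0.95), miR-34a-5p (0.92) and miR-185-5p (0.91). miR-296-3p was most like miR-135a-3p (0.92), miR-1224 (0.90) and miR-185-3p (0.89). With group means removed the lists differed. miR-298-5p was then nearest to miR-3099 (0.90), miR-532-3p (0.86) and miR-212-3p (0.86), and miR-298-3p to miR-674-5p (0.76), miR-15b-5p (0.76) and miR-133a-3p (0.74). miR-296-5p was nearest to miR-532-3p (0.92), miR-674-5p (0.91) and miR-144-3p (0.90), and miR-296-3p to miR-135a-3p (0.83), miR-770-3p (0.81) and miR-504 (0.78). Shared depth and region enter these values.

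Other imprinted miRNAs did not lie uniformly lower in amygdala. The lists used here were chosen with earlier results of these data known, so their region values and calls are descriptions. Of 5 from the Mest, Igf2 and H19 genes, edgeR called 2 higher and 0 lower between the regions, where 9.39% and 14.9% of all tested were higher and lower. The first of these, miR-483-5p of the growth factor gene Igf2, had a log2 fold change of 0.70 (SE 0.22, adjusted p = 0.0270). Within the lines it was 1.11 (SE 0.32) in high and 0.30 (SE 0.31) in low responders. The second, miR-675-3p of the H19 RNA, had 0 to 6 counts in the raphe libraries, too few for a fold. miR-335 of Mest had -0.62 (SE 0.41, adjusted p = 0.276), miR-483-3p 0.94 (SE 0.35, adjusted p = 0.0561) and miR-675-5p 0.84 (SE 0.55, adjusted p = 0.267). The median log2 fold change of the 5 was 0.84, the value of miR-675-5p, which had only 2 to 9 counts in the raphe libraries. Of 91 tested strands of the Dlk1-Dio3 region, 4 were higher and 23 lower in amygdala (median -0.34). The lowest p were those of miR-758-3p (-1.81, SE 0.25) and miR-134-5p (-1.41, SE 0.22), a regulator of dendritic spine size. Between the lines edgeR called 0 of the 5 and 0 of the 91 in either region, with 0 and 19 at an unadjusted p under 0.05 in dorsal raphe and 0 and 9 in amygdala. Over all 639 tested, 70 had an unadjusted p under 0.05 in edgeR in dorsal raphe and 65 in amygdala.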

How the data were processed

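Per the submitters' processing notes, reads were handled with cutadapt 1.3.1, Bowtie2 and bedtools 2.14.2. Per the labels' protocols, RNA came from miRNeasy kits and libraries were size-selected. No source used here gives the build, the annotation or how reads with several matches were counted. The authors deposited counts of reads for 722 mature miRNAs in each of 16 libraries. No 2 libraries were copies (lowest chi-square per degree of freedom 55.4 over 120 pairs).

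Counts were tested in edgeR 4.0.16 (R 4.3.3) by the robust quasi-likelihood test with TMM factors, in 1 model with 4 group means. filterByExpr (minimum count 10, minimum total 15) kept 639 miRNAs. The Benjamini-Hochberg adjustment ran over all of them, with a threshold of 0.05. The SE is the log2 fold change over the root of F. Log2 CPM uses a prior count of 2, and log2 ratios add 0.5 to each count. The procedure was tested on simulated data. Alternatives were DESeq2 1.42.0, library totals, no filter, a replicate block, single regions and libraries left out.

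All rows of both hairpins were named. The miRNAs most like each were the 3 of highest Pearson r. The members and lists were chosen with earlier results of these data known. Same-numbered low and high responder amygdala libraries deviated together (r of 0.69, 0.29, 0.21 and 0.51, all above 0.1), which met the criterion for pairs, although no label explains the numbers. The main tests use no pairing, and it enters as the replicate block among the alternatives. No other pair of groups met the criterion in all 4.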

Additional observations from a re-analysis of the deposited data

Results flagged for a closer look

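Of 32 sets of 4 libraries examined for a single value far from the rest (4 strands and 4 ratios in 4 groups), 1 stood out, where chance gives about 1 in 20. miR-296-3p in high responder amygdala replicate 4 stood at 4.47 CPM, against 7.76 to 7.98 CPM in the other 3 libraries of the group. On the log2 scale the gap to its nearest neighbour was 0.9499 of the group's range, above Dixon's 95% critical value.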

How the results depend on the processing

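No strand of miR-296 or miR-298 passed the test of a line difference or of the interaction under any alternative run. Directions held except in the results named here. The line difference of miR-298-3p in dorsal raphe was 0.066 in DESeq2, 0.13 with library totals, 0.086 with the 8 raphe libraries alone and 0.11 with these and the replicate block, an alternative chosen after seeing the data. It ran from -0.10 to 0.19 with 1 library left out. Without both libraries that stand apart it was 0.016 in amygdala, and its interaction was 0.15. Leaving out 1 library gave it -0.23 to 0.13 in amygdala and -0.33 to 0.066 for the interaction, and gave the interaction of miR-296-5p -0.19 to 0.46. The line difference in the 3p share of miR-296 in dorsal raphe ran from -15.2 to 1.28 percentage points. Without both libraries that stand apart the region difference of miR-296-3p in low responders was -1.75. Calls over all miRNAs between the lines in amygdala were 20 in DESeq2, 2 with library totals, 9 without both libraries that stand apart and 0 to 2 with 1 left out. For the interaction these were 12, 0, 3 and 0 to 1, and 1 without the filter. With 1 library left out, the region difference was called for 7.09% to 14.6% of all miRNAs in low responders (14.1% with all libraries, 7.09% without low responder amygdala replicate 3). In high responders this was 9.20% to 19.3% (13.1% with all, 19.3% without high responder amygdala replicate 4), and it was 21.3% in DESeq2 and 21.3% without both libraries that stand apart. The replicate block over all 16 libraries changed no call on these strands, nor did the block in the 8 amygdala libraries, whose numbers met the criterion for pairs. With the first the line difference of miR-296-3p was 0.90 in amygdala (adjusted p = 0.534 in edgeR) and -1.07 in dorsal raphe. With the second it was 0.91 (adjusted p = 0.168 in edgeR). The causes were not tested. Depth limits the strands of miR-296 most, with 8 to 339 counts in a library.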
